A study of Mus musculus with 2 samples.

Results

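The spots described here are those with the most *Gfap* in 2 sections of mouse cerebellum that carried a tumor lesion. They were selected on *Gfap* itself. Among spots under tissue with at least 2000 UMIs, with *Mbp* plus *Snap25* at 1000 counts per 1000000 UMIs (CPM) or more and with *Arg1* below 500 CPM, the top 8% of each section by *Gfap* CPM were taken. This gave 387 Gfap-high spots among 4831 spots that passed the filters and 7423 spots under tissue. Section 1 held 170 Gfap-high spots and 1953 other spots that passed, and section 2 held 217 and 2491. Each Gfap-high group was compared with the other passing spots of its own section.

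Both sections were 5 µm thick, formalin-fixed and profiled with the Visium CytAssist assay, which counts probe pairs ligated on mouse RNA, as UMIs, at each barcoded position of a grid. The labels give HP-F1 +cre for replicate 1 (section 1) and HP-B6 +cre for replicate 2 (section 2), and the tissue of both as a cerebellum injected with HP tumor organoids, with no treatment. HP organoids are mouse mammary tumor organoids with a human HER2 V777L transgene behind a lox-stop-lox cassette and the PIK3CA H1047R mutation, switched on by Cre given to the mammary gland, and luciferase-labelled clones of them were injected on 1 side into adult syngeneic C57BL/6 mice. No section without a tumor was analysed here, so all comparisons are within a section. A p-value rests on these 2 sections only, and mostly on a spread pooled across genes. Each spot covers several cells or parts of them, and fewer cells of a type and less RNA per cell cannot be told apart. The 2 sections shared 3096 spot barcodes, which are positions of the array and not cells.

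*Gfap* encodes glial fibrillary acidic protein, the intermediate filament by which astrocytes are usually recognised. In the cerebellum it is made by the velate and fibrous astrocytes of the granular layer and white matter, and by Bergmann glia, whose cell bodies lie beside the Purkinje neurons and whose fibers span the molecular layer up to the pial surface. After injury, or around a tumor, astrocytes make more GFAP, a response called gliosis, and a set of further genes such as *Lcn2*, *Serpina3n* and *Vim* is known to rise with it. Signals of the IL6 family act on *Gfap* through gp130 and STAT3.

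The gene lies on chromosome 11 (GRCm38, chr11:102887336-102897200, minus strand). The 250 bases before its start, chr11:102897201-102897450 on the minus strand in RefSeq's GRCm38.p6, are shown because every spot here was ranked by this gene.

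Gfap upstream: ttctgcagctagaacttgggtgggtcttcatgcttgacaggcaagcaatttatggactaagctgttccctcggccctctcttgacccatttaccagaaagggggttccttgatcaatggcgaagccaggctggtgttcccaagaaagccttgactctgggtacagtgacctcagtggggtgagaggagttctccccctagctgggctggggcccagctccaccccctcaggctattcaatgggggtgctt

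Neither the STAT motif TTCNNNGAA nor the AP-1 motif TGANTCA was found in this window on either strand, so no letters are in capitals. The STAT motif occurred in 7.02% and the AP-1 motif in 6.75% of 32851 upstream windows of the same length.

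The lesions of the 2 sections differed in kind. The lesion body was taken as the largest connected set of spots with enough UMIs that failed the *Mbp* plus *Snap25* or the *Arg1* filter, 933 spots in section 1 and 942 in section 2. *Krt7* and *Epcam*, which mark epithelial cells, stood at 2.81 and 6.72 CPM in the lesion body of section 1 against 3586 and 1682 CPM in that of section 2. *Col1a1* and *Lum*, matrix genes of fibroblasts, stood at 20687 and 1713 CPM in section 1 against 213.4 and 18.1 CPM in section 2. The epithelial markers were thus near 0 in the section 1 lesion although its label names tumor organoids. Differences between the sections below cannot be told apart from this one. Nor can they be told apart from the labels HP-F1 and HP-B6, or from any other difference between the 2 samples.

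*Gfap* was 6190 CPM in the median Gfap-high spot of section 1 (range 4427 to 14475) and 413 CPM in the median other spot. In section 2 the medians were 18683 CPM (range 12762 to 43369) and 2171 CPM. The cut thus fell higher in section 2, and the spots just inside and just outside it differed by little, 4427 and 4423 CPM in section 1 and 12762 and 12676 CPM in section 2. Measured over the summed spots, the log2 fold change of *Gfap* between the groups was 2.76, and when spots were chosen on a random part of their UMIs and measured on the rest it was 2.68. These values describe the choice and were not tested. The median Gfap-high spot held 11620.5 UMIs against 7840 for other spots in section 1, and 7646 against 10596 in section 2, so depth differed in opposite directions. Summed, the Gfap-high spots held 2121042 and 1839734 UMIs and the other spots 17990963 and 30376416.

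As to place, the Gfap-high spots formed connected sets and did not lie scattered. Of their neighbors on the 6-neighbor grid that passed the filters, 72.3% in section 1 and 67.7% in section 2 were Gfap-high themselves. Of all passing spots 8.01% were in either section. No interval is given for the neighbor shares, since a pair of Gfap-high neighbors counts from both sides. In section 1, 157 of the 170 spots fell into 4 connected patches of 10 or more, and in section 2, 172 of 217 fell into 5. Spots next to or on the outline of the tissue were more frequent among them, with 17.1% against 7.07% of other spots in section 1 and 13.8% against 6.02% in section 2. Spots of 1 section are not replicates, so these shares only describe each section.

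**Figure D1:**
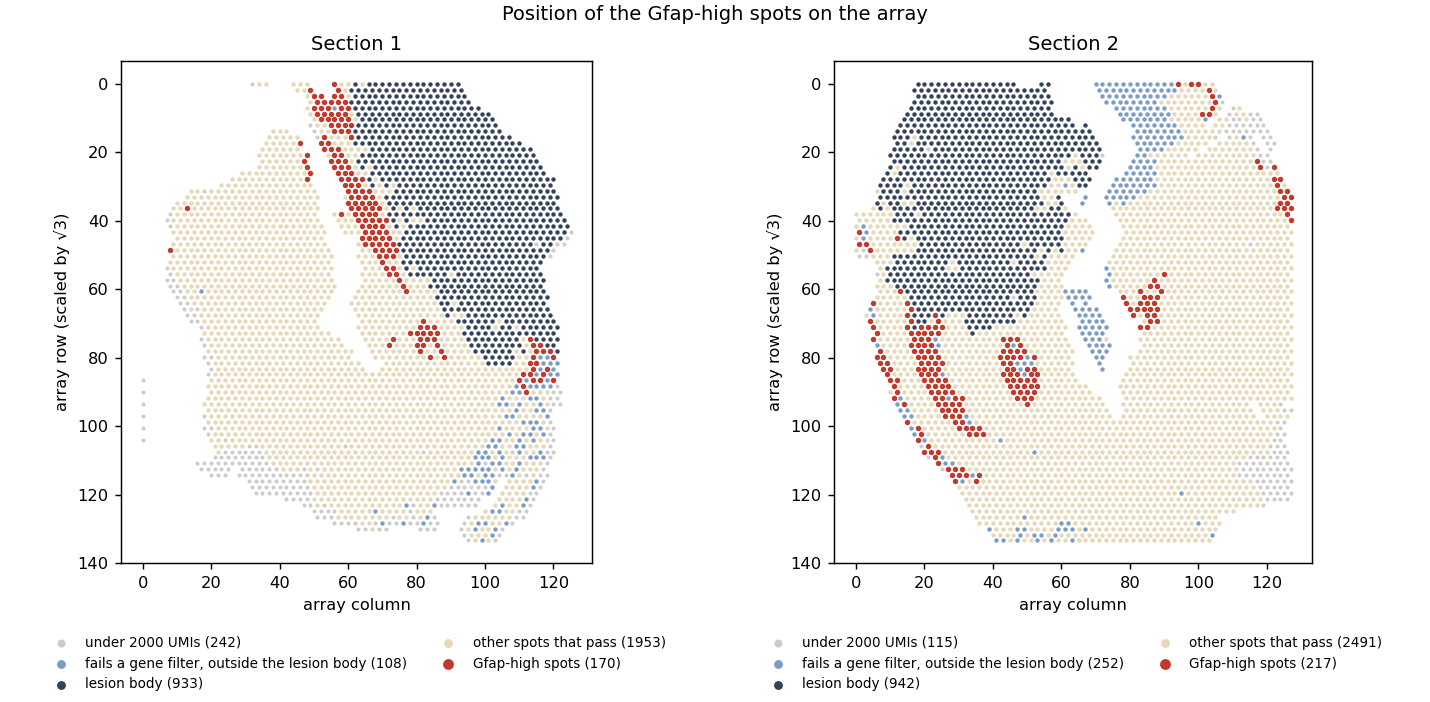
Map of both arrays (array column against array row, 1 point per spot under tissue), with the 170 and 217 Gfap-high spots in red, other passing spots in beige, the lesion body in dark blue, and spots left out in light blue and gray. In section 1 the red spots line the lesion body, and in section 2 they form narrow bands that run away from it, with 1 set on the far side of the tissue.

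Nearness to the lesion was marked in section 1 and less so in section 2. Within 5 grid steps of the lesion body lay 85.9% of Gfap-high spots (interval 79.9 to 90.3) against 10.4% of other spots in section 1, and 21.7% (16.7 to 27.6) against 12.1% in section 2. These intervals treat spots as independent draws, which touching spots of 1 section are not, so they measure no spread across animals. The median distance was 3 steps against 20 in section 1 and 11 against 23 in section 2. Of all passing spots in section 1, the share that was Gfap-high was 29.9% at 1 to 2 steps, 52.4% at 3 to 5, 8.61% at 6 to 10, 0.168% at 11 to 20 and 0.214% beyond. In section 2 it was 9.79%, 18.2%, 28.1%, 12% and 2.08% in the same bands. The highest share thus lay at 3 to 5 steps in section 1 and at 6 to 10 steps in section 2. With every failing spot counted as lesion, not only the largest set, the share within 5 steps was 88.8% against 28.6% in section 1 and 83.9% against 48.0% in section 2.

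**Figure D2:**
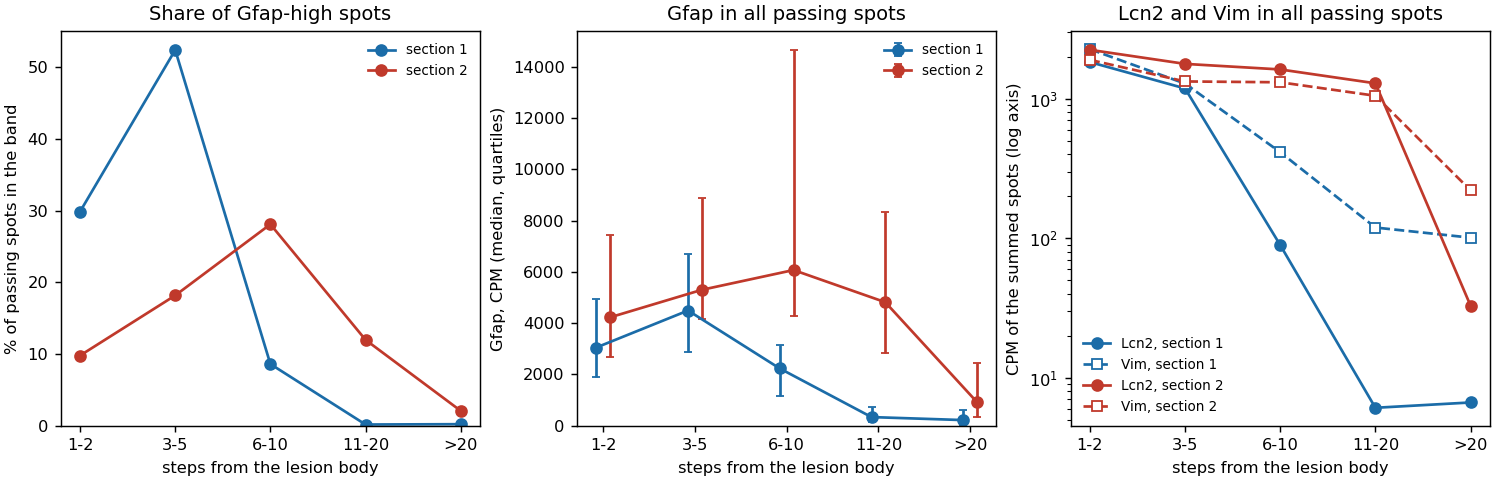
Left, share of passing spots that were Gfap-high by distance from the lesion body; middle, *Gfap* CPM of all passing spots (median and quartiles); right, *Lcn2* and *Vim* CPM of the summed passing spots on a log axis. In section 1 all 3 measures are low from 11 steps on, and in section 2 they stay high up to 20 steps.

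The Gfap-high spots held different tissue in the 2 sections. By the summed CPM of 12 Purkinje neuron genes, 77.9% of them in section 2 were in the top 25% of passing spots and 39.4% in section 1. By 14 oligodendrocyte genes the figures were 4.61% and 30.6%. The median oligodendrocyte sum was 4260 CPM in Gfap-high spots against 9960 CPM in other spots of section 2, and 10456 against 10875 CPM in section 1. The label of gliosis was checked on the 12 pan-reactive genes, which in the median spot summed to 6330 CPM against 340 CPM in section 1 and to 2066 against 786 CPM in section 2. In section 1, 98.2% of Gfap-high spots were in the top 25% by this sum and in section 2 only 18.0% were, below the 25% of all passing spots. Over the summed spots these genes stood at 6995 CPM against 1296 CPM in section 1 and at 2738 against 3095 CPM in section 2. In section 2 the median thus went with the label, while the share and the summed level went against it. The name Gfap-high is therefore used for both.

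Within each section the patches differed too. Their levels below are CPM by library size. The largest patch of section 1 had 84 spots at 1 to 6 steps from the lesion. It had *Mbp*, myelin basic protein and a gene of the selection, at 5453 CPM, below the 6925 CPM over all passing spots of the section. *Lcn2* was at 2358 CPM and *Serpina3n* at 2861 CPM, and it also held *Ttr*, the transthyretin of choroid plexus, at 2891 CPM. Patches of 35 and 20 spots in section 1 instead had *Itpr1*, the calcium release channel abundant in Purkinje neurons, at 834 and 1238 CPM, and *Slc1a3*, the glial glutamate transporter GLAST, at 1110 and 1793 CPM. A patch of 18 spots was rich in *Mbp* (9749 CPM), a gene of the selection, and had *Itpr1* at 22.3 CPM.

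In section 2 the patches of 78, 42 and 13 spots had *Itpr1* at 1828, 2196 and 1874 CPM, *Pcp2*, a gene particular to Purkinje neurons in the cerebellum, at 950, 936 and 844 CPM, and *Mbp* between 657 and 1477 CPM. Their *Serpina3n* was 372, 523 and 608 CPM. The patch of 25 spots, at 13 to 20 steps, and the patch of 14 spots, at 27 to 33 steps on the other side of the tissue, had almost no *Itpr1* (26.3 and 91.7 CPM) and had *Serpina3n* at 2244 and 1864 CPM and *Aqp4*, the water channel of astrocyte endfeet, at 816 and 1222 CPM. *Lcn2* was at most 264 CPM in the 5 patches of 10 or more spots of section 2, whereas the 4 of section 1 ranged from 378 to 2358 CPM. In smaller patches it reached 1205 CPM in section 2 and 137 CPM in section 1. The genes used to describe patches were picked after their values were seen.

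To ask which genes went with high *Gfap* in both sections, UMIs were summed over each spot group and section into 4 libraries and the quasi-likelihood test of edgeR was run on them, blocked by section, with p-values adjusted over 18598 genes by the Benjamini-Hochberg method, not counting the 4 genes of the rule. Of these, 196 were called higher in Gfap-high spots (1.05% of the genes tested) and 92 lower (0.495%) at an adjusted p below 0.05, and 2268 had an unadjusted p below 0.05. DESeq2 called 147 higher and 48 lower, of the 11097 genes to which it gave an adjusted p. The calls rest on 4 libraries and on the cut: with the top 5% or 12% of spots instead of 8%, 0 genes were called higher, and without spots within 2 steps of positions off the tissue, 1 was called higher and 2 lower. The levels or ratios of each section are therefore given with the genes that matter. Counted without a test, 587 genes (3.16%) were at least 1.5-fold higher in both sections and 827 (4.45%) at least 1.5-fold lower in both. Levels of fitted genes are TMM-scaled CPM.

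Genes of resting astrocytes and of fibrous and pial astrocytes were among those higher in both. *Fxyd1*, phospholemman, a regulator of the sodium pump, stood at 984 CPM in Gfap-high and 231 CPM in other spots of section 1 and at 1808 and 554 CPM in section 2. Its level was above that of other spots in both sections, with a log2 fold change of 1.90 (SE 0.31, adjusted p = 0.016). *Aldh1l1*, a folate enzyme used as an astrocyte marker, had 175 and 88.3 CPM in section 1 and 212 and 109 CPM in section 2 (log2 fold change 0.97, SE 0.20, adjusted p = 0.034). *Fabp7*, the brain fatty acid-binding protein of radial and Bergmann glia, had 64.4 and 32.6 CPM, then 176 and 91.2 CPM (0.96, SE 0.19, adjusted p = 0.028). These were the 2 of 25 tested astrocyte genes that were called higher, and none was called lower.

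*Slc1a3* missed the threshold with 722 and 296 CPM in section 1 and 954 and 443 CPM in section 2 (log2 fold change 1.20, adjusted p = 0.051). *Mlc1*, a membrane protein of perivascular endfeet, was at 454 and 240 CPM, then 593 and 349 CPM (0.84, adjusted p = 0.14). By contrast, *Fgfr3*, a growth factor receptor of astrocytes, had 100.5 CPM in Gfap-high spots against 200.3 CPM in section 1 and 74.5 against 115 CPM in section 2 (-0.82, adjusted p = 0.076), and *Slc7a10*, an amino acid transporter of astrocytes, had log2 ratios of -0.73 and -0.85 (adjusted p = 0.062). The astrocyte list as a whole moved little, with a median log2 fold change of 0.30 beside -0.03 over all genes tested.

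Of the 10 fibrous and pial astrocyte genes, *Fxyd1* was called and 4 were at least 1.5-fold higher in both sections (median 0.86). *Fam107a* had 1007 and 544 CPM in section 1 and 2532 and 635 CPM in section 2 (log2 fold change 1.44, adjusted p = 0.076). *Sparc*, a secreted matrix-binding protein, had ratios of 0.89 and 0.76 (adjusted p = 0.32), and *Itga6*, a laminin receptor chain, 0.74 and 0.72 (adjusted p = 0.069). *A2m*, the protease inhibitor alpha-2-macroglobulin, was the gene of the Bergmann glia list that was called, out of 11 tested, with 356 and 56.5 CPM in section 1 and 588 and 239 CPM in section 2 (log2 fold change 1.97, SE 0.34, adjusted p = 0.031). *Gria1*, a glutamate receptor subunit of Bergmann glia, was at 221 and 183 CPM in section 1 and at 1018 and 239 CPM in section 2 (adjusted p = 0.33), so its difference lay in section 2. The Bergmann glia list had a median log2 fold change of 0.81, with median ratios of 0.2498 in section 1 and 1.0048 in section 2. Its ratios ran from -0.87 to 2.64 in section 1 and from -0.52 to 2.09 in section 2. *Sept4* of this list was lower in both sections, with ratios of -0.29 and -0.095. *Dbi*, which encodes the acyl-CoA-binding diazepam-binding inhibitor, had 2276 and 970 CPM, then 4509 and 1551 CPM (1.39, adjusted p = 0.089).

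Apart from *Fxyd1*, *A2m* and *S100a9*, the largest fold changes among genes called higher, with at least 10 CPM in both sections, were those of *Rrad*, *Mroh5*, *Ngfr*, *Cd5l*, *Angpt2*, *Sla*, *Npy*, *Mustn1* and *Casp12*. *Ngfr*, the p75 neurotrophin receptor, had 36.1 and 9.84 CPM in section 1 and 166 and 48.7 CPM in section 2 (log2 fold change 1.82, SE 0.19, adjusted p = 0.0015), though among the more myelinated spots of each section its fold change was -0.13. *Npy*, neuropeptide Y, had 71.3 and 26.6 CPM, then 246 and 65.4 CPM (1.68, SE 0.21, adjusted p = 0.0067). *Casp12*, a caspase of the endoplasmic reticulum, had 88.9 and 21.3 CPM, then 109 and 47.0 CPM (1.63, SE 0.23, adjusted p = 0.015). *Rrad*, a small GTPase, and *Angpt2*, a ligand of endothelial TIE2, had fold changes of 2.05 and 1.72 (adjusted p = 0.030 and 0.018).

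**Figure D3:**
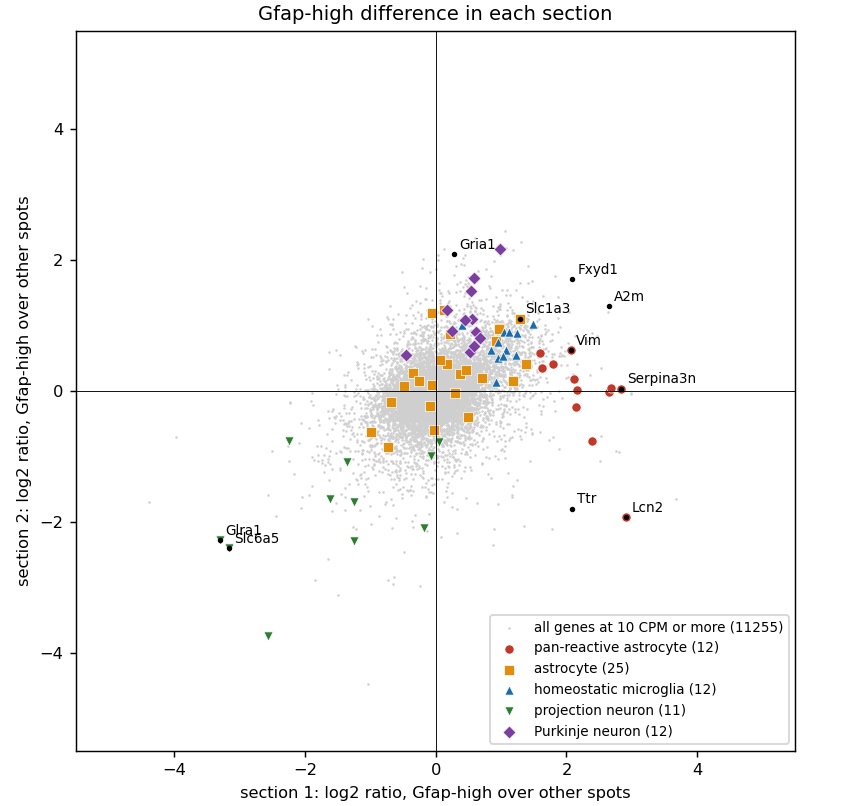
Log2 ratio of CPM (after adding 0.5 CPM), Gfap-high over other spots, in section 1 (x axis) against section 2 (y axis), for 11255 genes at 10 CPM or more in gray and 5 marker lists in color. Of 11 projection neuron genes 8 lie at least 1.5-fold low in both sections, homeostatic microglia genes lie above 0 in both, and pan-reactive genes lie between 1.59 and 2.91 on the x axis and between -1.93 and 0.62 on the y axis.

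Microglial genes were higher in Gfap-high spots of both sections. Of 12 homeostatic microglia genes, 4 were called higher (*P2ry12*, *Tmem119*, *Cx3cr1* and *Fcrls*), none lower, and the median log2 fold change was 0.86. In a fit of near and far spots together, that median was 0.13 within 5 steps of the lesion and 1.07 beyond. *Cx3cr1*, the fractalkine receptor, had 226 and 80.2 CPM in section 1 and 237 and 117 CPM in section 2 (log2 fold change 1.26, SE 0.22, adjusted p = 0.018). *P2ry12*, the ADP receptor of surveying microglia, had 88.9 and 41.7 CPM, then 83.2 and 53.9 CPM (0.86, SE 0.19, adjusted p = 0.046).

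Among 18 genes of macrophages and activated microglia, 4 were called higher, namely *Trem2*, *Tyrobp*, *Csf1r* and *Aif1* (median 0.77). In the same fit of near and far spots, the median of this list was -0.33 within 5 steps of the lesion and 0.92 beyond. Within 5 steps *Tyrobp* had log2 ratios of -0.77 and 0.14 in sections 1 and 2, and *Csf1r* of -0.25 and 0.54. *Csf1r*, the receptor of CSF1 and IL34, stood at 212 and 96.9 CPM in section 1 and at 336 and 179 CPM in section 2 (1.02, SE 0.22, adjusted p = 0.039), and *Tyrobp*, the adaptor of TREM2, had a log2 fold change of 0.96 (SE 0.21, adjusted p = 0.041). Since a spot holds several cells, these genes mark cells beside the astrocytes and the part of such cells in the differences was not tested.

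Part of the complement genes was higher too. Of 12 tested, 5 were called higher (*C1qb*, *C5ar1*, *Itgam* and *Itgb2* among them), 9 were at least 1.5-fold higher in both sections, and the median was 1.14. *C1qb*, a chain of the first component, had 669 and 281 CPM in section 1 and 758 and 359 CPM in section 2 (1.17, SE 0.27, adjusted p = 0.049), and *C1qa* and *C1qc* had fold changes of 1.19 and 1.12 (adjusted p = 0.077 and 0.081). *C4b* had ratios of 1.98 and 0.61 (adjusted p = 0.12). *C3* had 2.80 in section 1 and -0.93 in section 2. Of 19 interferon-induced genes, *Ifit3*, *Ifitm3*, *Gbp2* and *Igtp* were called higher (median 0.92). *Ifitm3*, an antiviral membrane protein, had 343 and 112 CPM, then 322 and 178 CPM (1.24, SE 0.25, adjusted p = 0.034), while *Bst2* had 1.18 (adjusted p = 0.062). Neither list had a gene called lower. In the fit of near and far spots together, the complement median was -0.07 within 5 steps of the lesion and 1.36 beyond. The interferon median was -0.09 and 1.12.

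Blood and vessel genes were called in small numbers. Of 4 erythrocyte genes tested, *Hba-a2* and *Hbb-bs*, an alpha and a beta hemoglobin gene, were called higher. *Hba-a2* had 30.1 and 10.99 CPM in section 1 and 48.9 and 15.2 CPM in section 2 (1.57, SE 0.24, adjusted p = 0.015). *Hbb-bs* had 24.1 and 13.2 CPM, then 58.2 and 16.9 CPM (1.36, adjusted p = 0.034). *Hbb-bt*, another beta gene, was not called (0.98, adjusted p = 0.38), nor was *Alas2*, with ratios of -0.55 and -0.09. Beyond 5 steps from the lesion the log2 fold changes were 0.31 for *Hba-a2* and -0.29 for *Hbb-bs*, neither called, and in section 1 both genes were at 0 CPM in the 24 Gfap-high spots there. Near the lesion in section 1, *Hba-a2* had a ratio of -0.11 and *Hbb-bs* of -0.92. Hemoglobin genes have close copies, and how far the counts of 1 copy include those of another was not tested. The neutrophil genes *S100a9* and *Csf3r*, 2 of 7 tested, had log2 fold changes of 1.95 and 1.18 (both adjusted p = 0.019). Of the 7, 3 were at least 1.5-fold higher in both sections and 1 at least 1.5-fold lower. Within 5 steps of the lesion *S100a9* and *Csf3r* had ratios of -0.41 and -0.54 in section 1 and 1.84 and 1.21 in section 2. *Pecam1* and *Cdh5* of 9 endothelial genes, *Tagln* of 9 pericyte and smooth muscle genes, *Dcn* of 12 meningeal and fibroblast genes and *Tgfb1* and *Smad3* of 18 genes of the BMP, Notch and TGF-beta list were also called higher. DESeq2 called 0 genes of the endothelial and 0 of the BMP, Notch and TGF-beta list. *Tgfb1* had 99.6 and 48.3 CPM in section 1 and 104 and 64.0 CPM in section 2 (0.87, SE 0.19, adjusted p = 0.041 by edgeR and 0.118 by DESeq2). No gene was called by edgeR in either direction among 9 ependymal genes (2 at an unadjusted p below 0.05, 1 called by DESeq2), 8 oligodendrocyte precursor genes (2 and 0), 9 proliferation genes (3 and 0) and 3 metallothionein genes (2 and 2). Nor was any among 8 choroid plexus, 11 T cell and 8 B and plasma cell genes, where both of those counts were 0. *Fabp7* of 11 lipid genes was called higher, and *Acan* of 19 scar matrix genes and *Ecel1* of 10 neuronal injury genes were called lower. *Krt7* was called lower (adjusted p = 0.026), at 53.6 against 173 CPM in section 2 and at 1.85 against 2.30 CPM in section 1, where it was near 0 throughout. In section 2 *Krt7* was at 48.7 against 626 CPM within 5 steps of the lesion but at 54.8 against 68.3 CPM beyond.

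Genes of the projection neuron list were lower over all passing spots, but not within 5 steps of the lesion. The list median there was 0.08, against -1.55 beyond. Over all passing spots 7 of 11 genes of the list were called lower and none higher, with a median log2 fold change of -1.64 beside -0.03 over all genes. *Slc6a5*, the glycine transporter of inhibitory neurons, had 24.5 CPM in Gfap-high spots and 224 CPM in other spots of section 1 and 11.6 and 63.8 CPM in section 2 (log2 fold change -2.90, SE 0.25, adjusted p = 8.8e-04). *Glra1*, the main adult glycine receptor subunit, had 11.1 and 114 CPM, then 9.31 and 47.2 CPM (-2.93, SE 0.28, adjusted p = 0.0015). *Vamp1*, a synaptic vesicle protein, and *Scn4b*, a sodium channel subunit, had fold changes of -1.22 and -1.64 (adjusted p = 0.026 and 0.011). Within 5 steps of the lesion, *Vamp1* had log2 ratios of 1.19 and 0.93 and *Scn4b* of 0.91 and 0.85 in sections 1 and 2.

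Of the other intermediate filament genes, those of neurons were called lower. *Nefm* and *Nefh*, the medium and heavy neurofilaments, and *Prph*, peripherin, were the 3 of 12 filament genes called, all lower. *Nefm* had 379 and 1088 CPM in section 1 and 236 and 775 CPM in section 2 (-1.62, SE 0.28, adjusted p = 0.019), *Nefh* had a log2 fold change of -1.47 (SE 0.25, adjusted p = 0.018) and *Prph* of -2.47 (SE 0.40, adjusted p = 0.016). *Nefl* had ratios of -1.04 and -1.33 (adjusted p = 0.080). *Des*, desmin of muscle and pericytes, had 14.8 and 9.16 CPM, then 16.9 and 6.09 CPM (1.07, adjusted p = 0.17). *Vim*, the partner filament of *Gfap* in reactive astrocytes, was at 1744 and 417 CPM in section 1 and at 1211 and 787 CPM in section 2 (1.34, adjusted p = 0.14).

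Besides *Slc6a5*, *Glra1* and *Prph*, the largest decreases among called genes with at least 10 CPM in the other spots of both sections were those of *Sncg*, *Slc18a3*, *Gabra5*, *Acan*, *Ndst4*, *Mcf2*, *Pnma3*, *Oprm1* and *Mpped1*, with log2 fold changes from -1.77 to -2.20. Some rest on few UMIs in the Gfap-high spots of sections 1 and 2. These were 14 and 3 for *Slc18a3*, 15 and 4 for *Acan*, 7 and 7 for *Pnma3* and 9 and 5 for *Prph*. *Sncg*, gamma-synuclein, had 17.1 and 94.8 CPM in section 1 and 26.2 and 100.4 CPM in section 2 (-2.20, SE 0.22, adjusted p = 0.0015). *Acan*, the aggrecan of perineuronal nets, had 6.95 and 22.8 CPM, then 2.33 and 16.2 CPM (-2.08, SE 0.38, adjusted p = 0.022). Of 10 granule neuron genes, *Calb2*, calretinin, was called lower (-1.41, SE 0.23, adjusted p = 0.017). Among 12 Purkinje neuron genes, none was called lower and *Arhgef33* was called higher, with 128 and 64.4 CPM in section 1 and 459 and 102 CPM in section 2 (adjusted p = 0.037).

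In the comparison of Gfap-high with other spots, genes of reactive astrocytes separated the 2 sections. None of the 12 pan-reactive genes was called by edgeR in either direction (4 had an unadjusted p below 0.05 and DESeq2 called 1). Their median log2 ratio was 2.15 in section 1 and 0.04 in section 2, and *Vim* alone was at least 1.5-fold higher in both. The list median was 0.07 within 5 steps of the lesion and 1.17 beyond, in the fit of near and far spots together. *Lcn2*, the iron carrier lipocalin 2, had 1747 CPM in Gfap-high and 233 CPM in other spots of section 1 but 242 and 919 CPM in section 2, log2 ratios of 2.91 and -1.93. *Serpina3n*, a serine protease inhibitor, had 2083 and 291 CPM, then 804 and 786 CPM (2.84 and 0.03). *C3*, complement component 3, had ratios of 2.80 and -0.93, and *Tgm1*, a transglutaminase, of 2.98 and -0.03. These 4 genes were chosen after their values were seen. Over all passing spots, their rank correlation with *Gfap* was above 0 in both sections. In sections 1 and 2 it was 0.566 and 0.399 for *Lcn2* and 0.490 and 0.615 for *Serpina3n*. For *C3* it was 0.537 and 0.393, and for *Tgm1* 0.473 and 0.252. The low ratios of section 2 thus describe its Gfap-high spots and not the ranking of all its spots. Within 5 steps of the lesion, *Lcn2* had log2 ratios of 0.58 and -2.62 in sections 1 and 2, and *Serpina3n* had 0.89 and -1.33. Beyond 5 steps *Lcn2* had 5.09 and -1.58, and *Serpina3n* had 3.11 and 0.39. A test of the difference between sections was not possible, because each section is 1 sample.

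The same split appeared in the 12 ischemic reactive genes, with median ratios of 1.11 in section 1 and -0.28 in section 2 and no gene called by edgeR in either direction (1 at an unadjusted p below 0.05, 0 by DESeq2), and 5 of them were 1.5-fold higher in section 1 and 1.5-fold lower in section 2. Over all genes that pattern was met by 377 (2.03%) and the opposite one by 180 (0.968%). In the 13 inflammatory reactive genes the medians were 1.25 and 0.58, and 3 were called higher. *Ggta1*, a galactosyltransferase, had 39.8 and 11.7 CPM in section 1 and 62.3 and 32.4 CPM in section 2 (1.33, SE 0.24, adjusted p = 0.023), *Gbp2*, an interferon-induced GTPase, had 1.29 (SE 0.22, adjusted p = 0.022) and *Srgn*, the proteoglycan serglycin of blood cells, had 1.02 (SE 0.19, adjusted p = 0.022). *Serping1*, the C1 inhibitor, had ratios of 2.38 and 0.88 (adjusted p = 0.18), *Iigp1* of 1.42 and 0.65 (adjusted p = 0.056) and *Amigo2* of 0.59 and 0.60 (adjusted p = 0.29).

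In the gp130 and STAT3 pathway, none of 18 genes was called by edgeR in either direction (7 at an unadjusted p below 0.05, 1 by DESeq2). Their median ratios were 0.70 in section 1 and 0.16 in section 2. *Il6ra*, the IL6 receptor, was the gene at least 1.5-fold higher in both, with 38.0 and 16.8 CPM, then 29.7 and 18.7 CPM (0.93, adjusted p = 0.083).

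Levels in the other spots also differed between the sections, and their part in the split of reactive genes was not tested. *Lcn2* in other spots was 233 CPM in section 1 and 919 CPM in section 2, and in section 2 it stood at 2243, 1778, 1622 and 1290 CPM in all passing spots from 1 to 2 up to 11 to 20 steps from the lesion before it was 32.8 CPM beyond. In section 1 it was 1832, 1185 and 89.2 CPM in the first 3 bands and 6.08 CPM at 11 to 20 steps. The sections thus lay closer in *Lcn2* next to the lesion than at 11 to 20 steps. *Vim* followed the same order, with 119 CPM in section 1 and 1050 CPM in section 2 at 11 to 20 steps.

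Splitting spots by layer genes gave a further view. Among spots in the top 25% by the Purkinje list but not by the oligodendrocyte list, 67 were Gfap-high in section 1 and 168 in section 2. In them *Serpina3n* was 1274 CPM against 236 CPM in other spots of that class in section 1 and 453 against 340 CPM in section 2. *Fxyd1* was 1051 against 490 CPM and 1822 against 956 CPM, higher in Gfap-high spots of both sections. *Slc1a3* was 1249 against 844 CPM in section 1 but 997 against 1098 CPM in section 2, so its difference in section 2 was not present within this layer. *C1qa* was 910 against 544 CPM and 1149 against 316 CPM.

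Among spots of the oligodendrocyte class, 52 were Gfap-high in section 1 and only 9 in section 2. There *Serpina3n* was 3051 against 581 CPM in section 1 and 2774 against 1059 CPM in section 2, and *C3* 476 against 78.4 CPM and 437 against 202 CPM. *Lcn2* was 2667 against 449 CPM in section 1 and 76.0 against 1135 CPM in section 2. In myelinated spots the sections thus gave *Serpina3n* and *C3* the same direction and *Lcn2* opposite ones, with the section 2 values resting on 9 spots and 52632 UMIs at a median of 29 steps from the lesion.

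**Figure D4:**
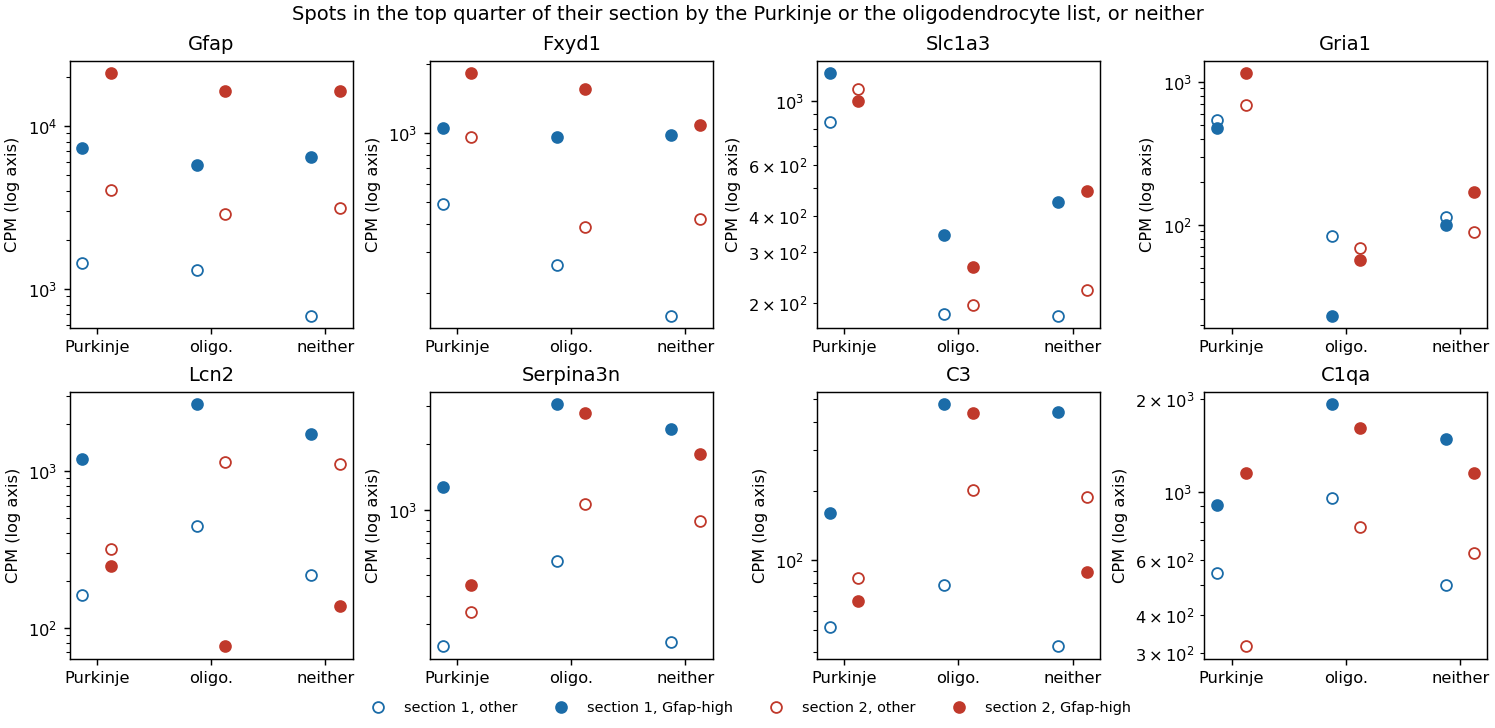
CPM by library size (log axes) of 8 genes in Gfap-high (filled) and other (open) spots of section 1 (blue) and section 2 (red), for spots in the top 25% by the Purkinje list only, by the oligodendrocyte list only, or by neither. *Fxyd1* and *C1qa* are higher in filled than in open points of the same color in each class, whereas *Lcn2* is lower in each class of section 2.

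Spots at most 5 steps from the lesion body and those farther away were then summed separately. Near the lesion there were 146 and 47 Gfap-high spots against 203 and 301 others, and far from it 24 and 170 against 1750 and 2190. This split does not hold distance fixed. In section 1, 21 of the 24 far Gfap-high spots lay at 6 to 10 steps. That band held 244 passing spots, beside 596 at 11 to 20 steps and 934 beyond. In section 2 it held 61 of the 170 and 217 passing spots, beside 651 and 1492. Compared within the near spots alone, edgeR called 0 genes in either direction, with 1100 at an unadjusted p below 0.05, and 22 of 66 genes given with fold changes here had the opposite direction to that in all spots. Within the far spots alone 1 of 67 had the opposite direction, 384 genes were called higher and 162 lower. The spread pooled across genes had a weight of 7.82 degrees of freedom in the near fit and an infinite one in the far fit. The counts of these 2 fits are therefore not on an equal footing. In the fit over all 8 libraries edgeR called 0 near and, far from the lesion, 3 higher and 2 lower. DESeq2 called 86 higher and 4 lower near, of 2842 genes with an adjusted p, and 83 and 30 far, of 11097. Of the 196 genes called higher over all spots, 55 (28.1%) were higher in all 4 of these comparisons, near and far in each section. For genes called lower it was 20 of 92 (21.7%). Over all 15094 genes with values near and far, 5.83% were higher in all 4 and 9.47% lower in all 4. Both called sets were chosen for their direction over these same spots. Shares above those of all genes are built into that choice and only describe the sets.

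Genes differed in whether they kept their direction at both distances. *Fxyd1* had log2 ratios of 1.04 and 1.14 near the lesion and 2.08 and 1.91 far from it, in sections 1 and 2. *Slc1a3* had 0.75 and 0.84 near, then 0.98 and 1.19 far, and *Dbi* 0.86 and 1.53 near, then 1.08 and 1.54 far. *Mlc1*, *Aldh1l1*, *Fabp7*, *Fam107a*, *A2m*, *Ngfr*, *Npy* and *Casp12* also had ratios above 0 in all 4. *Calb2* was below 0 in all 4, from -0.73 to -1.61.

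Genes of the astrocyte and filament lists were also among those that changed direction between near and far spots. For *Fgfr3*, *Slc7a10* and *C1qa* this held in section 1 only and for *Vim* in section 2 only. *Fgfr3* had 0.76 and -1.50 near, then -0.72 and -0.51 far, and *Slc7a10* 1.08 and -0.025 near, then -0.29 and -0.88 far. *Vim* had 0.10 and -0.64 near, then 2.43 and 1.12 far. *Tgfb1* had -0.71 and -0.17 near the lesion and 1.79 and 1.05 far from it. *Ggta1* had -0.25 and -0.23 near, then 3.03 and 1.37 far. *C1qa* had -0.55 and 0.70 near, then 1.75 and 1.26 far. Neurofilament *Nefm*, lower over all spots, had 0.95 and 0.50 near and -1.42 and -1.98 far, and *Scn4b* had 0.91 and 0.85 near and -1.39 and -1.82 far. The median of the projection neuron list was 0.08 near and -1.55 far, that of the complement list -0.07 and 1.36, and that of the homeostatic microglia list 0.13 and 1.07, in 1 fit over all 8 libraries.

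**Figure D5:**
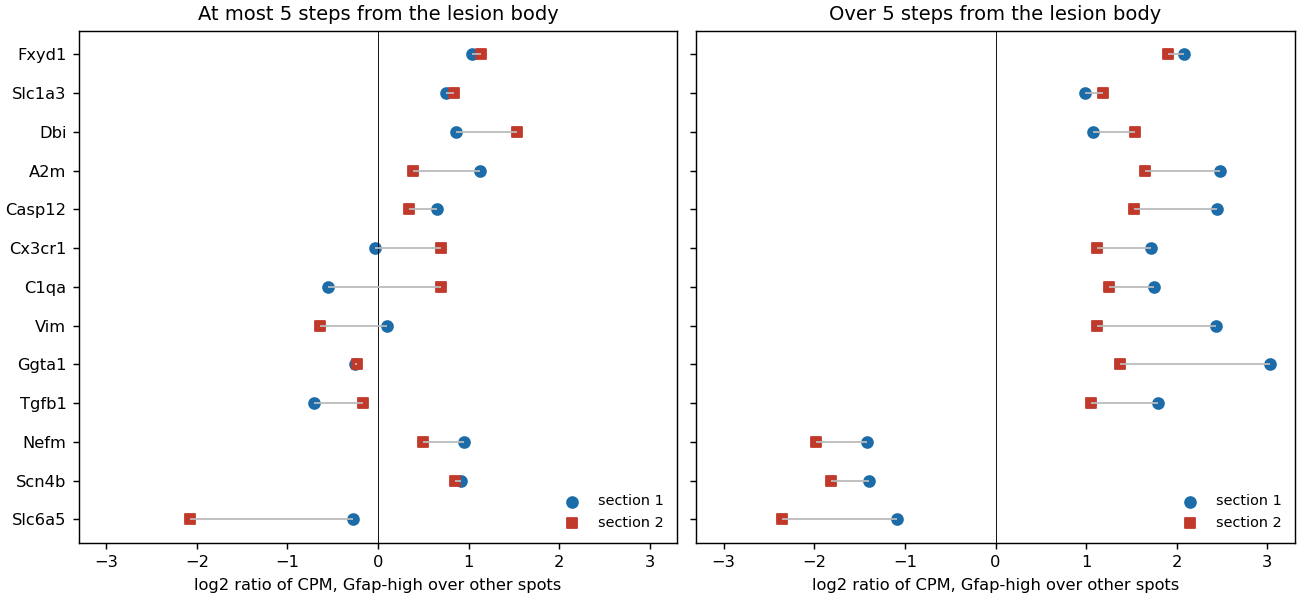
Log2 ratio of TMM-scaled CPM, Gfap-high over other spots, for 13 genes in section 1 (blue circles) and section 2 (red squares), within 5 steps of the lesion body (left) and beyond (right). The top 5 genes lie above 0 in both panels, *Ggta1* and *Tgfb1* lie below 0 on the left and above 0 on the right, and *Nefm* and *Scn4b* do the reverse.

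Tested as such, the change of the Gfap-high difference with distance was called for 0 of 15094 genes in the 8-library edgeR fit (0.0%), with 1455 at an unadjusted p below 0.05. DESeq2 called 76 of the 1341 genes to which it gave an adjusted p. Among Gfap-high spots alone, near against far also gave 0 calls in either direction (0.0%), with 697 at an unadjusted p below 0.05. DESeq2 called 3 in each direction, of 4343 genes with an adjusted p. Thus the opposite signs near and far are values and not differences that passed the edgeR test.

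The levels around the Gfap-high spots fell off over a few steps. In section 1 *Gfap* was 6575 CPM in the Gfap-high spots, 3228 CPM in the other spots 1 step away, 2178 CPM at 2 steps, 1530 CPM at 3 to 5 steps and 342 CPM beyond. In section 2 it was 20170, 7807, 5217, 4176 and 1883 CPM. The step from Gfap-high spots to their neighbors is set by the choice, since every other spot lies below the cut. *Fxyd1* followed with 1001, 574, 428, 341 and 152 CPM in section 1 and 1689, 1404, 840, 644 and 314 CPM in section 2. *C1qa* in section 1 was higher 1 step away (1629 CPM) than in the Gfap-high spots (1384 CPM), whereas in section 2 it was 568 CPM at 1 step against 1166 CPM in them. *Lcn2* in section 2 ran the other way, from 226 CPM in Gfap-high spots to 513, 810, 1098 and 938 CPM with distance. *Slc1a3* was 891 CPM in the section 2 spots and 1054 CPM at 1 step.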

How the data were processed

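Spatial counts came from 2 tissue sections (1 per replicate label). The authors made the deposited counts with Space Ranger 2.1.1 on mm10, per the labels: unnormalized UMIs for every gene at each position. The totals were 63986887 and 71878333 UMIs. Python 3.11.15 (numpy 2.4.6, pandas 2.3.3, scipy 1.17.1) served to choose spots and to obtain grid distances and Wilson intervals. UMIs were summed by section and spot group, filtered by filterByExpr, scaled by TMM (factors 0.934 to 1.06) and fitted with edgeR 4.0.16 in R 4.3.3 (robust quasi-likelihood test, section as a block, since both spot groups come from 1 section; common dispersion 0.0300, and 0.0542 without the block; Benjamini-Hochberg adjustment, adjusted p below 0.05), and by DESeq2 1.42.0 as an alternative. Strata under 20 spots were not fitted. Per-section ratios add 0.5 CPM. Doublet calling does not apply to spots. The tests were tested on simulated data.

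Members, lists and rules were chosen with earlier results of these data known. Genes were named by rule: the 4 genes of the selection; genes of 7 astrocyte, filament and STAT3 lists that were called, or at least 1.5-fold different in the same direction in both sections with 10 CPM or more in the higher group; up to 4 abundant genes of other lists; and the 12 largest called changes with the same direction in both sections in each direction. Genes outside it were chosen after their values were seen. Alternatives changed the cut, filters, depth, scaling, tool, block, layer and distance. Some genes that these rules name are not reported here.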

Additional observations from a re-analysis of the deposited data

Results flagged for a closer look

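Some spots that the comparison left out also reached the *Gfap* level at which their section was cut. In section 1 this held for 47 of 242 spots under the UMI minimum, for 36 of 933 spots of the lesion body and for 18 of 108 spots that failed a gene filter outside it. In section 2 it held for 5 of 115, 5 of 942 and 27 of 252 spots. They stand out because they lie outside the spots compared and carry the signal the others were ranked by. Those under the UMI minimum in section 1 held a median of 410 UMIs, so their CPM rest on few molecules. The 27 failing spots of section 2 held a median of 6400 UMIs, reached up to 85607 CPM and had *Pcp2* at 889 CPM when summed.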

How the results depend on the processing

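Main counts were 196 genes higher and 92 lower. They became 0 and 4 with the top 5% of spots, 0 and 0 with the top 12%, 127 and 52 with RLE factors, 321 and 147 without a filter on low counts, 72 and 24 with spots thinned to 2000 UMIs, 0 and 0 in the less myelinated lower part, 384 and 162 beyond 5 steps from the lesion, and 0 and 0 within them. With 5000 UMIs per spot 110 were higher, with *Arg1* below 100 CPM 387, and with library size only 91. DESeq2 called 48 lower. Without the replicate block (no section block) 0 were called higher and 0 lower. An alternative chosen after seeing the data, only spots over 2 steps from positions off the tissue, gave 1 and 2. The cause of these changes was not tested. Near against far Gfap-high spots, DESeq2 called 3 higher and 3 lower of 4343 genes where edgeR called 0, and for the change with distance 76 of 1341.

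Of 67 genes given with fold changes, all kept their direction under each setting except in the more myelinated upper part (4 reversed), beyond 5 steps (1) and within 5 steps (22 of 66). Within 5 steps the values were -0.26 for *Vim*, 0.61 for *Nefl*, 0.74 for *Nefm*, 0.28 for *Nefh*, 0.18 for *Fgfr3*, 0.74 for *Slc7a10*, -0.24 for *Ggta1*, -0.11 for *Gbp2*, -0.35 for *Srgn*, -0.30 for *Iigp1*, -0.014 for *Itga6*, -0.47 for *Tgfb1*, 1.08 for *Vamp1*, 0.90 for *Scn4b*, -0.33 for *Tyrobp*, -0.058 for *C1qc*, -0.10 for *Ifitm3*, -0.069 for *Bst2*, 0.94 for *Glra1*, 0.15 for *Slc18a3*, 0.38 for *Gabra5* and 0.29 for *Mpped1*. In the upper part they were -0.79 for *Hbb-bs*, -0.13 for *Ngfr*, -0.041 for *Itpr1* and -0.96 for *Gria1*, and the section 2 ratio of *C3* was 0.14. Beyond 5 steps *Hbb-bs* had -0.29. List medians within 5 steps were -0.24 for inflammatory reactive, -0.044 for STAT3, -0.40 for macrophage, -0.078 for complement, -0.16 for interferon, 0.22 for projection neuron and 0.088 for homeostatic microglia genes. In the upper part they were -0.55 for Bergmann glia and -0.054 for Purkinje genes. The projection neuron median was -1.35 with the top 12%, -2.04 thinned, -1.18 in the upper part, and from -1.69 to -1.35 with 1 section left out, which gives values without a test. The complement median was 1.52 with *Arg1* below 100 CPM and 1.40 beyond 5 steps.

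The share of Gfap-high spots near the lesion in section 1 was 92.5% with the top 5%, 74.9% with the top 12%, 51.2% at 3 steps and 97.1% at 8 steps. In section 2 it was 12.4% at 3 steps, 39.2% at 8 steps and 83.9% with all failing spots as lesion. Neighbors were Gfap-high in 61.7% and 75.4% (section 1) and 62.6% and 70.7% (section 2) with the top 5% and 12%. Strata with near set at 8 steps or with all failing spots as lesion held under 20 spots and were not fitted. Depth limits low genes, of which the Gfap-high sums held few UMIs, and with 1 residual degree of freedom the calls lean on the spread shared across genes.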
